A study of Mus musculus with 2 samples.

Results

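The genes described are the chains of major histocompatibility complex (MHC) class I molecules and tapasin, 8 of the 55357 genes counted in these libraries. They were taken by symbol and not by their values: B2m, the light chain β2-microglobulin, H2-K1 and H2-D1, the classical heavy chains, H2-Q7, H2-T22 and H2-T23, non-classical heavy chains, H2-K2, and Tapbp, which encodes tapasin. All 8 passed the limits on low values set for every gene in the comparison of the libraries. Those limits were 50 UMIs over both pools compared and 20 CPM in at least 1 of them. A UMI, a unique molecular identifier, marks 1 captured RNA molecule, and CPM is the number of UMIs of a gene per 1000000 UMIs of its pool of cells.

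The series holds 2 droplet libraries of mouse ileum T cells, 1 named SAP and 1 named Control, and the labels do not say what SAP stands for. Per the design text, dendritic cells were exposed to phages taken from SAP mice or from healthy mice and then put in contact with gut T cells of germ-free (GF) mice. In FucoID, an enzyme on one cell tags the surface sugars of a cell that touches it, here with fucosyl-biotin. Gut T cells of germ-free mice and phage-treated dendritic cells were thus common to both groups, and the source of the phages is the stated difference. No label says whether the sequenced cells were the tagged ones, how many mice gave cells, or their strain, sex and age. With 1 library per group, library and group cannot be told apart, and no test was possible.

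After filters on depth, mitochondrial share and doublets, 4826 SAP and 5408 Control cells remained, of which 4749 and 5345 held at least 1 UMI of a T cell receptor or CD3 gene. These T cells held 17746493 SAP and 17676113 Control UMIs, with medians of 3399 and 3118 per cell. Each T cell was put in 1 pool by its UMIs. The Trdc gate, with a UMI of the δ receptor chain and none of Cd8b1 or Cd4, held 2029 SAP and 2231 Control cells. The Cd8b1 gate held 539 and 544 cells, the Cd8a gate, with Cd8a but not Cd8b1, 1202 and 1455, and the Cd4 gate 167 and 185. The other 812 and 930 T cells had no such UMI or an excluded combination of them. A UMI count of 0 does not show that a cell lacks a gene, and 5 of the kept barcodes occurred in both libraries.

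A small set of cells with a T cell gene UMI differed from the rest, and results that they move are given with and without them. They held under 10 T cell gene UMIs per 10000 UMIs, a limit chosen after the data had been seen. There were 67 in SAP, 1.41% of T cells but 7.42% of their UMIs, and 23 in Control, 0.43% of T cells and 2.54% of UMIs. B2m stood at only 167 CPM in those of SAP and 225 CPM in those of Control, while Krt18, a keratin gene of epithelia, stood at 1606 and 1611 CPM. Folr1, which is in none of the marker lists, stood higher, at 5753 and 3842 CPM. The lineage of these cells was not tested. Of the 7 epithelial markers, 0 were without a UMI in the T cells of either library, and they summed to 218 and 133 CPM with these cells and 83.6 and 91.6 CPM without them. The markers did not move alike. Leaving these cells out took the ratio of SAP over Control from 2.4 to 0.433 for Krt18 and from 1.01 to 1.02 for Epcam. For Fabp2 it went from 0.413 to 0.148. The 8 T cell markers summed to 7065 and 7493 CPM, or 7622 and 7684 CPM without them. The 6 macrophage markers summed to 3.32 and 2.04 CPM, with Adgre1, C1qa and C1qb at 0 in both libraries. The 8 dendritic markers summed to 69 and 75.2 CPM, of which Itgax gave 894 UMIs in SAP and 961 in Control. Clec9a was at 0 in both libraries, Flt3 in SAP and Siglech in Control.

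A class I molecule is a heavy chain that binds a short peptide and is held by β2-microglobulin. The peptides are cut largely by the proteasome, carried into the endoplasmic reticulum by the TAP transporter and loaded with the help of tapasin, which bridges TAP and the heavy chain. Classical heavy chains present peptides to CD8 T cells. Among non-classical ones, H2-T23 encodes Qa-1, which presents leader peptides of other class I chains to the CD94-NKG2 receptors, H2-T22 is bound by some γδ T cell receptors of mice, and H2-Q7 encodes a Qa-2 molecule. T cells with a γδ receptor or with CD8α homodimers are common in the gut epithelium, and class I genes are known to respond to interferon in most cell types.

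In GRCm38 with GENCODE M21, 7 of the members lie on chromosome 17, and B2m lies on chromosome 2 at 122147686 to 122153083 on the plus strand. Tapbp, at 33915899 to 33929292, H2-K2, at 33974659 to 33978827, and H2-K1, at 33996017 to 34000347, lie close together. H2-D1 lies at 35262730 to 35267499, H2-Q7 at 35439155 to 35443773, H2-T23 at 36029773 to 36032855 and H2-T22 at 36037128 to 36042747. Tapbp, H2-D1 and H2-Q7 are on the plus strand of chromosome 17 and the other 4 on the minus strand. H2-K2 is annotated there as a transcribed unprocessed pseudogene and the other 7 as protein-coding genes. The submitters' processing notes name mm10, and the annotation they used may differ from this one.

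The upstream sequences of H2-K1, H2-Q7 and H2-T22 are shown as examples with and without an exact enhancer A word, which is given below. They are the 250 bases before the first start listed in RefSeq's annotation of GRCm38.p6, read 5′ to 3′ on the strand of the gene, at chr17:34000348-34000597 (minus strand), chr17:35438905-35439154 (plus strand) and chr17:36042743-36042992 (minus strand). Capitals mark exact matches, on either strand, to the core of an enhancer A type NF-κB site (GGGATTCCC), the core of an interferon-stimulated element (GTTTCACTT), CCAAT and TGACG.
H2-K1: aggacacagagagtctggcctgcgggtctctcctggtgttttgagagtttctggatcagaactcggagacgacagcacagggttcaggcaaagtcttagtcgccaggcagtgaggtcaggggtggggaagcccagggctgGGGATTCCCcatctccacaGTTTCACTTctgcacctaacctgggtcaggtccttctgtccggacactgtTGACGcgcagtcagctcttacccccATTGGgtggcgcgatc
H2-Q7: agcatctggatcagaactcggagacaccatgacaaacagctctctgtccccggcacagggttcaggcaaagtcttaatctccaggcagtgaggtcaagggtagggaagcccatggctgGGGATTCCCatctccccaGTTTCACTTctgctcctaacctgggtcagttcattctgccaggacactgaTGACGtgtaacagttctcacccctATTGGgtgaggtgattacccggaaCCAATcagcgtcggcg
H2-T22: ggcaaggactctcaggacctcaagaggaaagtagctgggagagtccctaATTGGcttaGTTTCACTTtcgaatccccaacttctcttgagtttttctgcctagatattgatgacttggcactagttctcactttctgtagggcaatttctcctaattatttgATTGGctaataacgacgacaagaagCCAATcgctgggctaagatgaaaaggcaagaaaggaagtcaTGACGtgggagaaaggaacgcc
The enhancer A word was in 0.311% of the same windows of 27025 genes, the interferon word in 0.351%, CCAAT in 34.5% and TGACG in 17.9%. The enhancer A and interferon words were found together in 4 genes, H2-D1, H2-K1, H2-Q6 and H2-Q7. H2-T22 held the interferon word without the enhancer A word, and the windows of B2m, H2-T23 and Tapbp held neither. In H2-K1 the enhancer A word began 110 bases before the start and the interferon word 91 bases before it, and in H2-Q7 they began at 132 and 114 bases. The H2-K1 and H2-D1 windows matched at 161 of 177 aligned bases (91%), and those of H2-K1 and H2-Q7 at 152 of 175 aligned bases (86.9%). RefSeq's table held 7 of the 8 members, all but H2-K2. A match describes these letters only, and no binding was measured.

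The 3' ends that this assay reads are not equally distinct. Of the 50-base words in the last 400 bases of H2-T22, 63.5% also occur in H2-T10, so how reads were split between these genes is uncertain. The share was 36.2% for H2-T23, with genes outside the family such as Rab33b and Hook2, and 12.2% for H2-D1. It was 0.57% for H2-K1 and for H2-Q7, and 0 for B2m, H2-K2 and Tapbp. Only the longest annotated transcript of each member was used, whose end may not be the one read. Only exact words were counted, so a low share does not show that reads of close relatives were kept apart.

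Class I RNA was abundant in the T cells of both libraries. B2m stood at 2512 CPM in SAP and 2713 CPM in Control, H2-D1 at 2162 and 2427 CPM, and H2-K1 at 2100.4 and 2389 CPM. Since each molecule is counted once at its 3' end, CPM is a share of molecules and was not divided by length. H2-Q7 was the most abundant non-classical chain, at 865 CPM in SAP and 923 CPM in Control. H2-T23 stood at 262 and 282 CPM, Tapbp at 144 and 152 CPM, H2-T22 at 75.8 and 86.7 CPM, and H2-K2 at 33.2 and 33.3 CPM. This order of the 8 genes was the same in both libraries. Of the UMIs of the 6 heavy chain members, H2-K2 among them, the classical chains made up 77.5% in SAP and 78.4% in Control. The 3 non-classical members made up 21.9% and 21%. Class I genes outside the members are not in this sum, such as H2-Q6, at 556 CPM in SAP and 661 CPM in Control, and H2-Q4, at 436 and 460.3 CPM. The shares are thus not those of all class I heavy chain RNA.

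**Figure D1:**
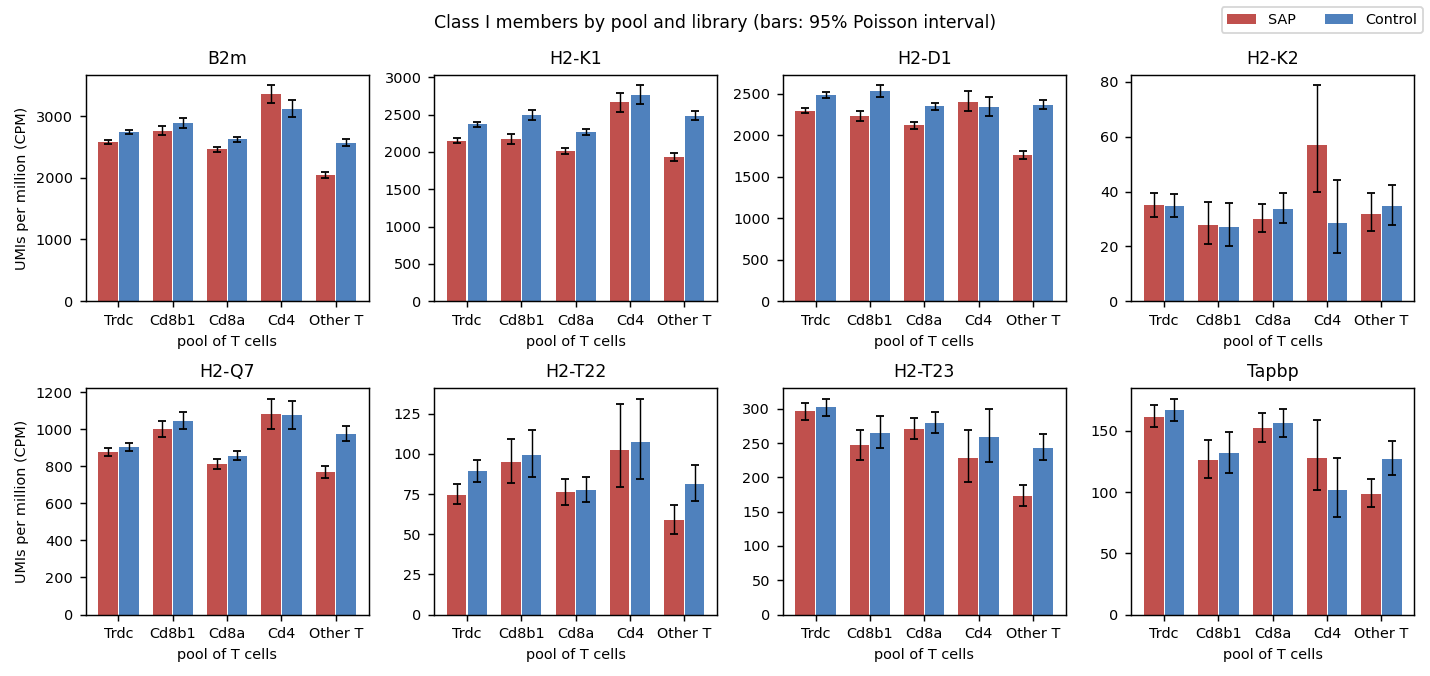
CPM of each member (vertical axes, from 0) in the 5 pools of T cells (horizontal axes), with SAP left of Control in each pair; error bars are 95% Poisson intervals of the counts. B2m and H2-K1 are highest in the Cd4 gate of both libraries, and in the pool of other T cells the SAP bars are lower than the Control bars for all 8 members.

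The class I chains were slightly lower in SAP than in Control T cells. The 6 heavy chains summed to 5499 CPM in SAP and 6141 CPM in Control, a ratio of 0.895, or 0.939 without the cells of few T cell gene UMIs. The ratio was 0.879 for H2-K1 (95% interval 0.867 to 0.891) and 0.891 for H2-D1 (0.879 to 0.903), or 0.922 and 0.934 without those cells. These intervals, and all others given, cover counting error only and not the spread between mice or cultures. Together the classical pair had a ratio of 0.928 (0.919 to 0.937) without those cells.

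Most of the other members lay nearer to 1. The ratio was 0.926 for B2m (0.914 to 0.938), 0.937 for H2-Q7 (0.916 to 0.957), 0.931 for H2-T23 (0.894 to 0.969) and 0.949 for Tapbp (0.898 to 1.002). When the cells of few T cell gene UMIs were left out these were 0.972, 0.983, 0.979 and 0.998. For H2-Q7 the direction turned when cells with a UMI of the B cell, plasma, dendritic, macrophage or epithelial lists were left out, at 1.03. H2-T22 had a ratio of 0.874 (0.812 to 0.942), or 0.921 without the cells of few T cell gene UMIs, and H2-K2, the least abundant member, of 0.996 (0.887 to 1.12). H2-K2 lay on the other side of 1, at 1.03, without the cells of few T cell gene UMIs, and at 1.09 without those of the other-lineage lists. With all T cells the ratio was thus below 1 for all 8 members, but the side of 1 of H2-Q7 and H2-K2 depended on which cells were kept.

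None of the 8 members reached a 1.2-fold difference, a size that 12.8% of the 5701 genes compared reached as higher in SAP and 2.53% as lower. At 1.1-fold, a limit added after the data had been seen, H2-K1, H2-D1 and H2-T22 were lower and none was higher, against 10.9% of genes lower and 28.7% higher. Without the cells of few T cell gene UMIs, none of the 8 reached 1.1-fold in either direction, against 7.14% of genes lower and 26.8% higher. The counts of genes depend on scaling: 730 were higher and 144 lower by 1.2-fold with CPM, 410 and 503 with TMM factors, and 473 and 354 with median-of-ratios factors. With TMM factors, which moved the median log2 ratio of all genes by -0.11, H2-K1, H2-D1 and H2-T22 were lower by 1.2-fold, and with median-of-ratios factors H2-T22 was.

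Set against all genes, whose median log2 ratio was 0.04, the members lay on the low side, and this placing does not depend on a common scaling factor. On the log2 scale the ratio of H2-K1 lay 0.23 below that median, that of H2-T22 0.24 and that of H2-D1 0.21 below it. A lower ratio than H2-K1 was found for 6.28% of genes, than H2-T22 for 5.77% and than H2-D1 for 7.89%. The shares were 14.5% for B2m, 15.8% for H2-T23, 17.5% for H2-Q7, 20.8% for Tapbp and 37.2% for H2-K2. Without the cells of few T cell gene UMIs they were 9.17% for H2-K1, 8.8% for H2-T22, 11.6% for H2-D1, 22.5% for B2m and 32% for Tapbp.

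Depth and mitochondrial share differed between the libraries, with a median mitochondrial share of 1.48% of UMIs in SAP and 1.19% in Control T cells. The ratio of the heavy chains was therefore also taken within ranges of each, without the cells of few T cell gene UMIs. It was 0.944 in cells of 500 to 1500 UMIs, 0.932 at 1500 to 3000, 0.952 at 3000 to 6000 and 1.03 (1.001 to 1.05) above 6000 UMIs, where 396 SAP and 255 Control cells lay. By mitochondrial share it was 0.951 under 1%, 0.929 at 1 to 2%, 0.967 at 2 to 4% and 0.995 (0.944 to 1.05) from 4% up. The heavy chains were thus lower in SAP in every range of depth but the deepest, where they were slightly higher, and in every range of mitochondrial share but the highest, where the interval included 1.

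Pool by pool, H2-K1 was lower in SAP in all 5 pools, with ratios of 0.906 in the Trdc gate, 0.869 in the Cd8b1 gate, 0.887 in the Cd8a gate, 0.963 in the Cd4 gate and 0.778 in the other T cells. H2-D1 had 0.926, 0.882 and 0.902 in the Trdc, Cd8b1 and Cd8a gates, and 1.03 (0.956 to 1.1) in the Cd4 gate. In the Trdc, Cd8b1 and Cd8a gates the interval of both classical chains lay below 1, with and without the cells of few T cell gene UMIs. In the Cd8a gate H2-D1 had 0.952 (0.904 to 1.002), an interval that includes 1, when cells of the other-lineage lists were left out. In the Cd4 gate the intervals of both included 1.

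In the pool of other T cells, 7 of the 8 members, all but H2-K2, were lower in SAP by 1.2-fold or more, with ratios of 0.711 (H2-T23) to 0.795 (B2m), against 21.4% of genes lower. Leaving out the cells of few T cell gene UMIs kept 777 SAP and 918 Control cells of this pool, and then none of the 8 was lower by that size, against 9.55% of genes. The ratios there were 0.857 for H2-T23 and 0.95 for B2m. A few cells thus decided the values of this pool. The epithelial markers summed to 501 and 205 CPM in the SAP and Control pools with all cells, and to 46.6 and 42.5 CPM without those of few T cell gene UMIs.

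In the Cd4 gate B2m stood at 3351 CPM in SAP and 3119 CPM in Control, a ratio of 1.07 (1.01 to 1.14), or 1.07 without the cells of few T cell gene UMIs. In the Trdc, Cd8b1 and Cd8a gates the ratio of B2m was 0.942, 0.958 and 0.938. Leaving out cells with a UMI of the B cell, plasma, dendritic, macrophage or epithelial lists gave 1.08 (0.994 to 1.18) for B2m in the Cd4 gate and 1.05 (0.995 to 1.1) in the Cd8a gate, so that the Cd8a gate then lay on the same side of 1. It gave 1.11 (1.01 to 1.22) for H2-K1 in the Cd4 gate, so the direction of H2-K1 there depends on those cells. The plasma markers summed to 141 and 619 CPM in the SAP and Control Cd4 gates, and the B cell markers to 3.16 and 117 CPM. The Control sums rest on 1 cell of few T cell gene UMIs: leaving out such cells, 5 in SAP and 1 in Control, gave 136 and 139 CPM for the plasma and 3.24 and 4.39 CPM for the B cell markers. H2-K2 had 36 UMIs in the SAP and 20 in the Control Cd4 gate, a ratio of 1.99 (1.12 to 3.62), and Tapbp had 81 and 71 UMIs, a ratio of 1.26 (0.905 to 1.76). These 2 members were higher by 1.2-fold in SAP and none was lower, against 25.7% of genes higher and 14.7% lower in this gate.

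**Figure D2:**
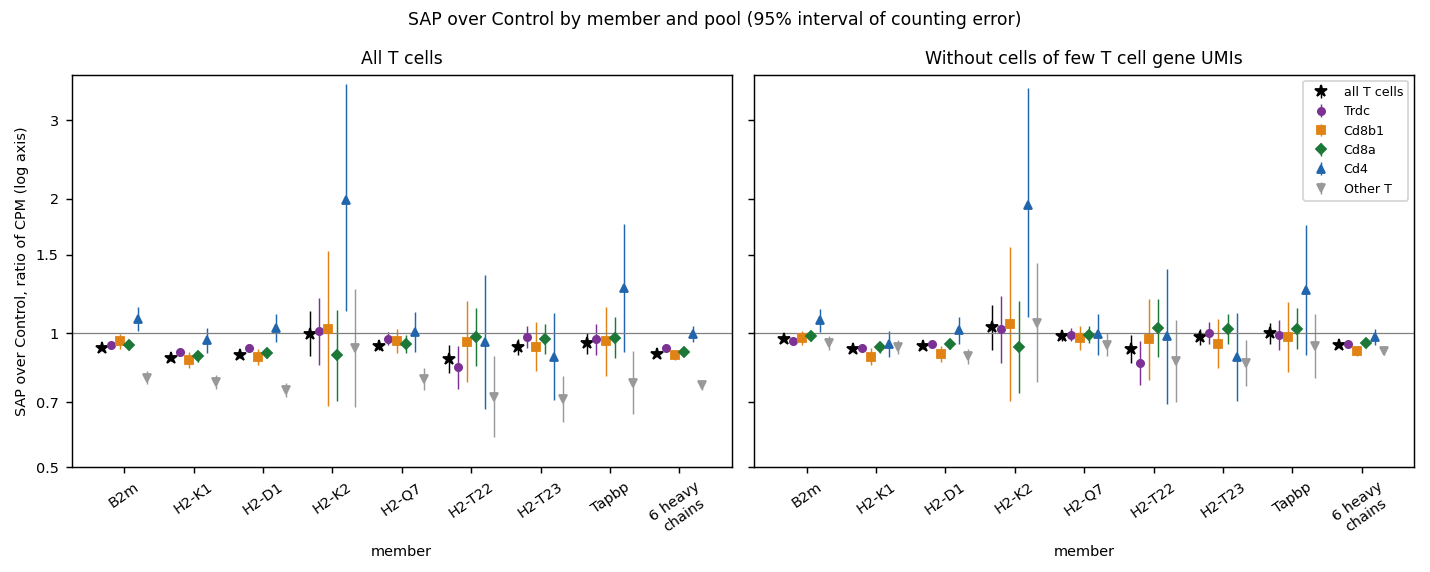
Ratio of CPM, SAP over Control (vertical axis, log scale), for each member and for the 6 heavy chains together (horizontal axis) in all T cells and in each pool, with 95% intervals of counting error; the left panel holds all T cells and the right panel leaves out the cells with few T cell gene UMIs. The points of the other T cells lie at 0.711 for H2-T23 and 0.795 for B2m on the left and at 0.857 and 0.95 on the right.

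Within each library the gates differed by member. The median log2 ratio of all genes was not 0 in these comparisons. Over the Cd8b1 gate it was 0.11 in SAP and 0.085 in Control for the Trdc gate and 0.11 and 0.095 for the Cd8a gate. For the Cd4 gate it was -0.035 and -0.064. A ratio slightly above 1 was thus usual in the Trdc and Cd8a gates. Tapbp was higher in the Trdc than in the Cd8b1 gate, at 162 CPM in the Trdc gate against 126 CPM in the Cd8b1 gate of SAP and 167 against 132 CPM in those of Control, ratios of 1.28 (1.12 to 1.47) in SAP and 1.27 (1.1 to 1.46) in Control. H2-T23 stood at 296 CPM in the Trdc gate against 247 CPM in the Cd8b1 gate of SAP and 302 against 265 CPM in those of Control, ratios of 1.2 (1.09 to 1.32) in SAP and 1.14 (1.03 to 1.26) in Control. Over the alternatives run, the H2-T23 ratio ranged from 1.09 to 1.24 in SAP and from 1.04 to 1.16 in Control. H2-K2, with 271 against 56 UMIs in SAP and 267 against 51 in Control, had ratios of 1.25 (0.937 to 1.7) in SAP and 1.27 (0.939 to 1.75) in Control. Tapbp and H2-K2 were the members higher by 1.2-fold in both libraries, a size that 19.7% of genes also reached in both, and no member was lower by that size in both, against 6.61% of genes. With median-of-ratios factors the Tapbp ratios were 1.16 in SAP and 1.17 in Control, under that size.

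H2-Q7 had the opposite order. It stood at 878 CPM in the Trdc gate against 1000.2 CPM in the Cd8b1 gate of SAP and 904 against 1044 CPM in those of Control, ratios of 0.878 (0.835 to 0.923) in SAP and 0.866 (0.823 to 0.911) in Control. B2m was also lower in the Trdc gate, with ratios of 0.934 in SAP and 0.951 in Control. For H2-K1 the ratio was 0.991 in SAP and 0.951 in Control, and for H2-D1 it was 1.03 in SAP and 0.981 in Control, so the classical chains differed little between these gates. With gates set at 2 UMIs the H2-K1 ratio in Control was 1.02. The H2-T22 ratio was 0.787 (0.667 to 0.931) in SAP and 0.898 (0.762 to 1.06) in Control, with the doubt about its shared 3' end.

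In the Cd8a gate H2-Q7 was again lower than in the Cd8b1 gate, at 810.2 CPM in the Cd8a gate against 1000.2 CPM in the Cd8b1 gate of SAP and 857 against 1044 CPM in those of Control, ratios of 0.81 (0.767 to 0.856) in SAP and 0.821 (0.778 to 0.867) in Control. H2-T22 had ratios of 0.8 in SAP and 0.781 in Control, and Tapbp of 1.21 (1.04 to 1.4) in SAP and 1.18 (1.02 to 1.37) in Control. H2-Q7 and H2-T22 were thus lower by 1.2-fold in both libraries, which 7.60% of genes were, and no member was higher by that size in both, against 20.4% of genes. Leaving out the cells of few T cell gene UMIs, the H2-Q7 ratios were 0.852 in SAP and 0.837 in Control and none of the 8 was lower by 1.2-fold in both, against 7.37% of genes, while Tapbp, with ratios of 1.27 in SAP and 1.21 in Control, was higher in both, as were 20.2% of genes. For H2-T23 the ratio was 1.1 (0.988 to 1.22) in SAP and 1.05 (0.95 to 1.17) in Control, and the Control value was 0.966 with median-of-ratios factors, on the other side of 1.

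In the Cd4 gate B2m and H2-K1 stood above the Cd8b1 gate. B2m had 3351 CPM in the Cd4 gate against 2761 CPM in the Cd8b1 gate of SAP and 3119 against 2882 CPM in those of Control, ratios of 1.21 (1.15 to 1.28) in SAP and 1.08 (1.03 to 1.14) in Control. H2-K1 had 2663 CPM in the Cd4 gate against 2168 CPM in the Cd8b1 gate of SAP and 2766 against 2494 CPM in those of Control, ratios of 1.23 (1.16 to 1.3) in SAP and 1.11 (1.05 to 1.17) in Control. H2-D1 lay on opposite sides of 1 in the libraries, with ratios of 1.08 (1.02 to 1.14) in SAP and 0.928 (0.876 to 0.981) in Control, and the ratio of H2-T23 was 0.926 (0.765 to 1.12) in SAP and 0.976 (0.818 to 1.16) in Control. No member reached 1.2-fold in both libraries in either direction, against 11.2% of genes higher and 16.5% lower.

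Between the Trdc and the Cd4 gate, Tapbp was higher in the Trdc gate with ratios of 1.26 (1.01 to 1.6) in SAP and 1.65 (1.3 to 2.12) in Control, and it was the member higher by 1.2-fold in both libraries, as were 29.7% of genes. H2-T23 stood at 296 CPM in the Trdc gate against 229 CPM in the Cd4 gate of SAP and 302 against 259 CPM in those of Control, ratios of 1.29 (1.09 to 1.54) in SAP and 1.17 (1.004 to 1.37) in Control. The median log2 ratio of all genes between these gates was 0.14 in SAP and 0.15 in Control, so part of such a ratio was common to most genes. B2m had ratios of 0.77 in SAP and 0.878 in Control, H2-K1 of 0.807 and 0.858, and H2-Q7 of 0.813 and 0.841, all lower in the Trdc gate. H2-T22 had 0.728 in SAP and 0.831 in Control and was the member lower by 1.2-fold in both libraries, as were 14.4% of genes. Without the cells of few T cell gene UMIs its ratios were 0.734 in SAP and 0.843 in Control, and none of the 8 was then lower by 1.2-fold in both, against 14.9% of genes, while Tapbp was still higher in both, as were 28.8% of genes.

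**Figure D3:**
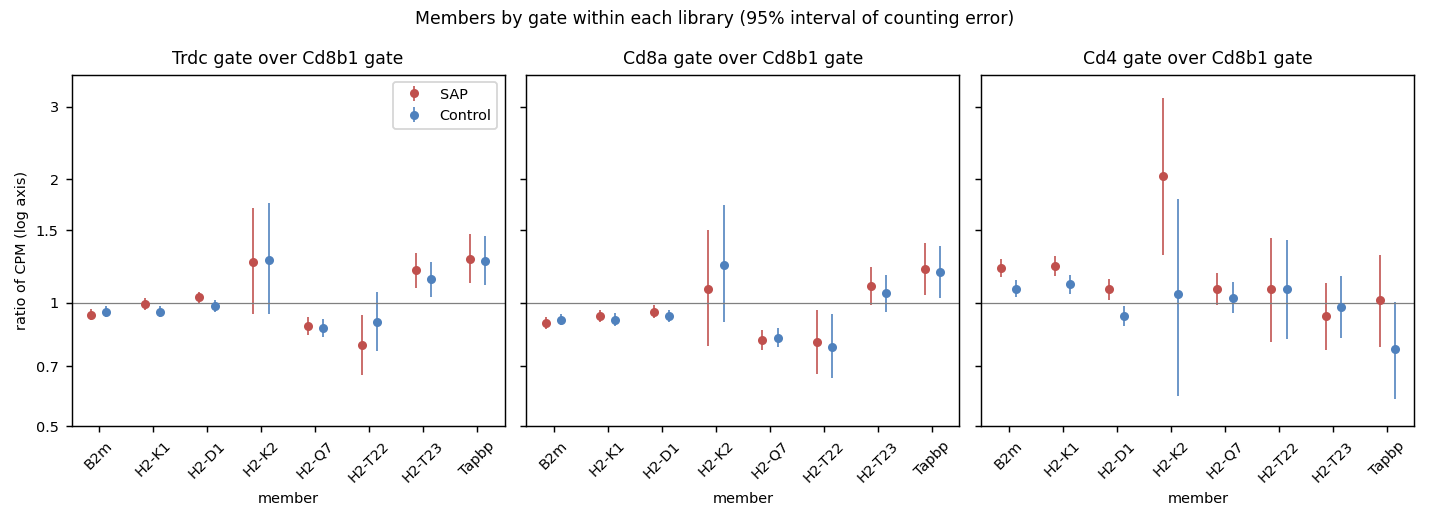
Ratio of CPM of the Trdc, Cd8a and Cd4 gates over the Cd8b1 gate (vertical axis, log scale) for each member (horizontal axis), with SAP left of Control and 95% intervals of counting error. Tapbp lies above 1 and H2-Q7 below 1 for the Trdc and Cd8a gates of both libraries, H2-T23 lies above 1 for the Trdc gate of both, and B2m and H2-K1 lie above 1 for the Cd4 gate of both.

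Ratios between members of one pool need no scaling to the library. There were 1.11 (1.03 to 1.19) H2-K1 UMIs per H2-D1 UMI in the Cd4 gate of SAP and 1.18 (1.1 to 1.26) in that of Control. In the other gates this ratio was 0.936 and 0.957 (Trdc), 0.972 and 0.987 (Cd8b1) and 0.95 and 0.966 (Cd8a) in SAP and Control. Of the 4 gates, the Cd4 gate was thus the one in which H2-K1 outnumbered H2-D1 in both libraries, and its interval did not overlap those of the other gates of the same library. H2-K1 also outnumbered H2-D1 in the pool of other T cells, at 1.1 (1.06 to 1.14) in SAP and 1.05 (1.01 to 1.09) in Control.

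H2-T23 relative to the classical pair was highest in the Trdc gate. Per UMI of the pair there were 0.0667 (0.0639 to 0.0695) H2-T23 UMIs in the Trdc gate of SAP and 0.0623 (0.0598 to 0.065) in that of Control, and 0.0657 (0.062 to 0.0697) and 0.0606 (0.0573 to 0.064) in the Cd8a gates. In the Cd8b1 gates there were 0.0562 (0.0513 to 0.0615) and 0.0528 (0.0482 to 0.0578), and in the Cd4 gates 0.0452 (0.038 to 0.0534) and 0.0507 (0.0434 to 0.0588). The Trdc gate lay above the Cd8b1 and Cd4 gates with no overlap of intervals in both libraries, and the Cd8a gate did so in SAP but overlapped them in Control. The neighbours Trdc and Cd8a, and Cd8b1 and Cd4, overlapped in both. B2m UMIs per heavy chain UMI were 0.513 and 0.474 in the SAP and Control Cd4 gates and 0.45 and 0.443 in the Trdc gates.

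**Figure D4:**
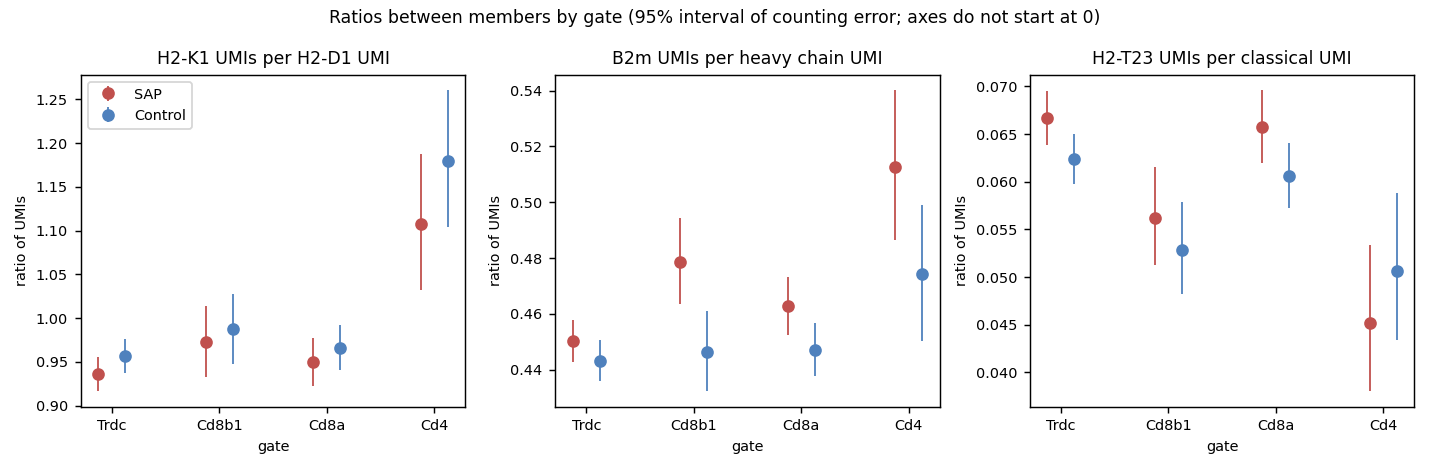
Ratios of UMIs between members (vertical axes, which do not start at 0) in the 4 gates (horizontal axes), with SAP left of Control and 95% intervals of counting error. H2-K1 per H2-D1 is highest in the Cd4 gate, at 1.11 in SAP and 1.18 in Control, and H2-T23 per classical UMI is highest in the Trdc gate, at 0.0667 and 0.0623.

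Per cell, most T cells showed both classical chains even at low depth. To compare cells at 1 depth, 1000 UMIs were drawn from each, and 443 SAP and 461 Control cells with fewer were not used. A heavy chain UMI was then found in 98.7% of 4306 SAP cells and 98.8% of 4884 Control cells, and H2-K1 and H2-D1 together in 75.3% and 77.6%. B2m was found in 88.4% and 90.5%, against 97.2% and 98.2% of the same cells at full depth. H2-K1 was found in 85.6% and 86.8% of thinned cells, H2-D1 in 86.8% and 88.6%, H2-Q7 in 58.1% and 58.3% and H2-T23 in 24.5% and 24.9%, against 98.3% and 98.6%, 97.9% and 98.7%, 89.3% and 89% and 59.4% and 57.8% at full depth. Tapbp was found in 13.9% and 14.3%, H2-T22 in 7.78% and 8.13% and H2-K2 in 3.62% and 3.64%, against 40.3% and 38.5%, 24% and 23.9% and 11.4% and 9.95% at full depth. The shares of H2-Q7, H2-T23, Tapbp, H2-T22 and H2-K2 were slightly lower in SAP after thinning and slightly higher in SAP at full depth, where the median SAP cell was deeper.

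No cell type known to lack class I was present to give a background, since nearly all nucleated cells use these genes. The shares in the thinned cells of few T cell gene UMIs were far below those of all T cells, with B2m in 34.3% and 34.8% and H2-T23 in 2.99% and 4.35% of 67 SAP and 23 Control cells. The kept cells with no T cell gene UMI, 77 in SAP and 63 in Control with medians of 769 and 682 UMIs, had 148 and 354 CPM of B2m and 1371 and 1619 CPM of heavy chains. The variance of thinned UMIs over their mean, which is 1 for pure counting noise, was 1.33 and 1.27 in SAP and Control for B2m, 1.39 and 1.55 for H2-K1, 1.27 and 1.33 for H2-D1, 1.07 and 1.14 for H2-T23 and 1.03 and 1.07 for Tapbp. H2-K1 and the other abundant chains thus varied more between cells than counting alone gives, with the cells of few T cell gene UMIs included. Those cells add to the spread. In SAP 58 thinned cells had no heavy chain UMI, or 25 without them, and in Control 59, or 49 without them.

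The thinned cells were also split by UMIs of Gzma, which encodes granzyme A, a protease of cytotoxic granules. This split was chosen after the data had been seen and was made without the cells of few T cell gene UMIs. H2-T23 stood at 188 CPM in the 1063 SAP cells with 0 to 4 Gzma UMIs, 312 CPM in the 1091 cells with 5 to 19 and 342 CPM in the 2085 cells with 20 or more. In Control it stood at 229, 289.7 and 349 CPM in 1078, 1284 and 2499 cells. The highest range over the lowest gave 1.82 (1.55 to 2.14) in SAP and 1.52 (1.32 to 1.76) in Control, so H2-T23 was higher in the cells with the most Gzma in both libraries. Within the Trdc gate the ratio was 1.92 (1.47 to 2.55) in SAP and 1.52 (1.19 to 1.96) in Control. It was less regular within the smaller gates, at 0.985 (0.579 to 1.65) in SAP and 1.87 (1.17 to 3.04) in Control for Cd8b1 and 1.79 (1.23 to 2.68) in SAP and 1.05 (0.768 to 1.47) in Control for Cd8a.

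Tapbp had the same order, at 124, 139 and 178 CPM in SAP and 129, 137 and 188 CPM in Control from the lowest to the highest range of Gzma, ratios of 1.44 (1.17 to 1.77) in SAP and 1.46 (1.2 to 1.78) in Control. H2-D1 differed less, with ratios of 1.13 (1.08 to 1.19) in SAP and 1.1 (1.05 to 1.16) in Control. H2-K1 was lower in the cells with the most Gzma, with ratios of 0.937 (0.892 to 0.984) in SAP and 0.899 (0.859 to 0.941) in Control, as was H2-Q7, with 0.83 (0.771 to 0.894) in SAP and 0.869 (0.808 to 0.935) in Control. B2m had 1.04 (0.995 to 1.09) in SAP and 0.996 (0.954 to 1.04) in Control, with intervals that included 1. In all T cells pooled, the classical chains thus lay on opposite sides of 1 along Gzma in both libraries, H2-D1 above and H2-K1 below. Ratios within gates are given for H2-T23 only. The gates themselves differed in Tapbp, H2-Q7 and H2-K1 per H2-D1, and whether the mix of gates changed along Gzma was not tested.

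**Figure D5:**
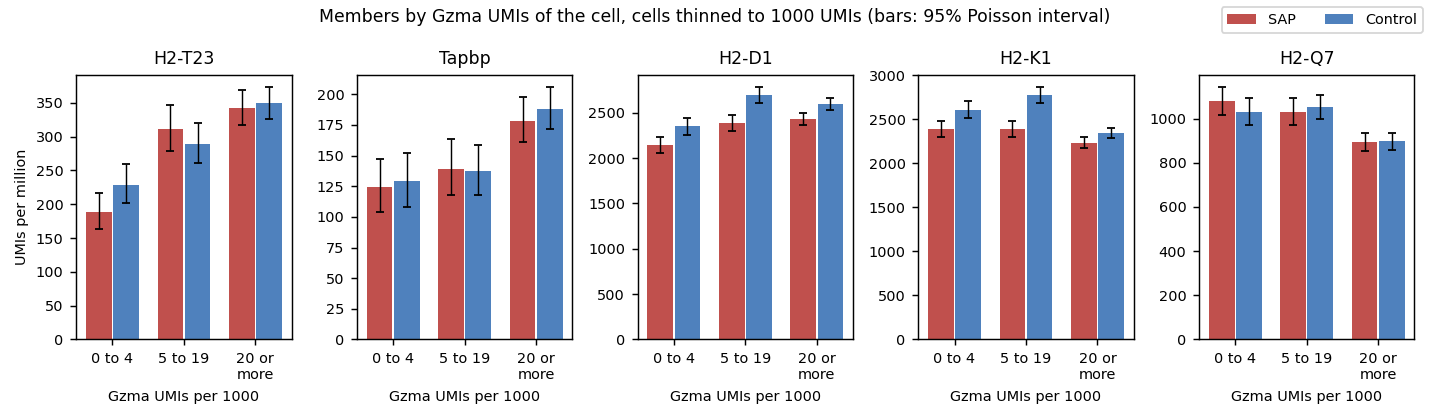
CPM of 5 members (vertical axes, from 0) in T cells with 0 to 4, 5 to 19 and 20 or more Gzma UMIs after thinning to 1000 UMIs per cell (horizontal axes), with SAP left of Control and 95% Poisson intervals. H2-T23 is at 188 in SAP and 229 in Control in the lowest range and at 342 and 349 in the highest, while H2-Q7 is at 1078 and 1032 in the lowest and 895 and 896 in the highest.

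Class I genes were also set against a list of 14 interferon-induced genes in the same cells, in a split likewise chosen after the data had been seen. Cells with 4 or more UMIs of the list, 85 in SAP and 128 in Control, had 3176 and 3266 CPM of B2m, against 2557 and 2656 CPM in cells with none, ratios of 1.24 (1.1 to 1.4) in SAP and 1.23 (1.11 to 1.36) in Control. H2-T23 had ratios of 1.7 (1.22 to 2.31) in SAP and 1.39 (1.03 to 1.83) in Control. For H2-K1 the ratio was 1.12 (0.975 to 1.28) in SAP and 1.31 (1.18 to 1.44) in Control. B2m and H2-T23 were thus higher in the cells with the most interferon-induced RNA in both libraries, and the interval of H2-K1 included 1 in SAP.

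The genes that cut and load class I peptides differed little between the libraries. The 7 peptide loading genes had a median ratio of 1.001, against 1.03 over all genes, and 0 of 7 reached 1.2-fold. Without the cells of few T cell gene UMIs the median ratio was 1.05, against 1.04 over all genes. The chaperones Calr, at 396 CPM in SAP and 405 CPM in Control (0.98), Canx, at 154 and 131 CPM (1.18), and Pdia3, the partner of tapasin in loading, at 291 and 263 CPM (1.11), were the 3 highest. Without those cells the ratios of Calr, Canx and Pdia3 were 0.978, 1.09 and 1.05. Of 8 proteasome genes, with a median ratio of 1.04, or 1.003 without those cells, 1 was higher by 1.2-fold and 0 lower. It was Psmb7, a subunit of the constitutive proteasome, at 98.1 CPM in SAP and 67.5 CPM in Control (1.45), but the ratio was 0.969 without the cells of few T cell gene UMIs. Psmb8, a subunit of the immunoproteasome, stood at 274 and 299.9 CPM (0.912), and Psme1 and Psme2, the chains of the proteasome activator PA28, at 337 and 332 CPM (1.02) and 147 and 129.8 CPM (1.13). Without those cells the ratios of Psmb8, Psme1 and Psme2 were 0.941, 1.03 and 1.06.

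Of 9 regulators of class I transcription, 7 passed the limits on low values and 0 reached 1.2-fold. Their median ratio was 1.01, or 1.05 without the cells of few T cell gene UMIs. The interferon regulatory factor genes Irf2 and Irf1 stood at 166 CPM in SAP and 163 CPM in Control (1.01) and at 145 and 156 CPM (0.933). Of 14 interferon-induced genes, 10 passed the limits, with a median ratio of 0.95, and 1 was lower and 0 higher by 1.2-fold. The lower gene was Ifi27l2a, at 99.5 CPM in SAP and 124 CPM in Control (0.801), or 0.84 without the cells of few T cell gene UMIs. Without those cells the median ratio of the list was 0.9996, and 0 of 10 were lower or higher by 1.2-fold. Isg15, which encodes a ubiquitin-like protein, stood at 211 and 251 CPM (0.843), and Gbp4, a guanylate-binding protein gene, at 73.9 and 74.2 CPM (0.995). Without those cells Isg15 had a ratio of 0.884 and Gbp4 of 1.04.

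Of 13 further class I and class I-like genes, 5 passed the limits, 0 reached 1.2-fold, and their median ratio was 0.896, or 0.949 without the cells of few T cell gene UMIs. H2-Q6, whose upstream window held the same words as that of H2-Q7, stood at 556 CPM in SAP and 661 CPM in Control (0.841), and H2-Q4 at 436 and 460.3 CPM (0.947). H2-M3, which presents formylated peptides, stood at 46.7 and 47.4 CPM (0.984), Cd1d1, which presents lipids, at 18.2 and 20.4 CPM (0.891) and H2-T10, which shares its 3' end with H2-T22, at 37.8 and 42.1 CPM (0.896). All 5 ratios lay below 1, but that of H2-M3 was 1.03 without the cells of few T cell gene UMIs.

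Of 13 genes of receptors and coreceptors for class I molecules, 6 passed the limits and 0 reached 1.2-fold, with a median ratio of 1.05. Without the cells of few T cell gene UMIs, 2 of 6 were higher by 1.2-fold, Cd160 at 1.21 and Klra7 at 1.25, against 6.79% of all genes. Klrd1, which encodes CD94 of the Qa-1 receptors, stood at 784 CPM in SAP and 817 CPM in Control (0.96), Cd8a at 612 and 592 CPM (1.03) and Cd160 at 212 and 185 CPM (1.15). Without the cells of few T cell gene UMIs Klrd1 had a ratio of 1.01 and Cd8a of 1.09. Klrd1 was higher in the Trdc than in the Cd8b1 gate, with ratios of 5.04 (4.56 to 5.58) in SAP and 4.51 (4.1 to 4.97) in Control. Of 9 class II genes, 1 passed the limits, H2-DMa, at 27.2 and 29.9 CPM (0.911). The invariant chain gene Cd74 was at 12.1 and 12.4 CPM in SAP and Control, a ratio of 0.969, and H2-Eb1 at 6.54 and 5.09 CPM, a ratio of 1.28. When the cells of few T cell gene UMIs were left out, the ratio of Cd74 was 1.5 (1.2 to 1.89) and that of H2-Eb1 1.53 (1.13 to 2.08). Few cells thus set the Cd74 ratio. H2-Ab1 lay below 1, at 5.13 CPM in SAP and 7.47 CPM in Control, a ratio of 0.687 (0.52 to 0.904). Without the cells of few T cell gene UMIs its ratio was 0.892 (0.667 to 1.19).

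By gate, the immunoproteasome genes Psmb8 and Psmb9 were, like H2-Q7 and unlike Tapbp, lower in the Trdc than in the Cd8b1 gate. Psmb8 had ratios of 0.839 (0.769 to 0.916) in SAP and 0.842 (0.772 to 0.918) in Control, Psmb9 of 0.706 (0.607 to 0.824) in SAP and 0.691 (0.591 to 0.811) in Control and Psmb10, whose intervals included 1, of 0.938 (0.809 to 1.09) in SAP and 0.927 (0.796 to 1.08) in Control. The ratio was also below 1 for Nlrc5, the transactivator of class I genes, at 0.727 (0.582 to 0.914) in SAP and 0.679 (0.54 to 0.858) in Control. Pdia3 was higher in the Trdc gate, with ratios of 1.16 (1.05 to 1.28) in SAP and 1.38 (1.24 to 1.54) in Control. For Tap1, a chain of the transporter, the ratio was 1.03 (0.85 to 1.26) in SAP and 0.882 (0.73 to 1.07) in Control. Psmb9, Psmb10, Nlrc5 and Tap1 were named after their values had been seen.

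The genes whose log2 CPM followed the summed heavy chains most closely over the 8 pools of 4 gates and 2 libraries were Btg1, Gpr132, Lpxn, Atp5l and Nsa2, with Pearson correlations of 0.971, 0.957, 0.957, 0.948 and 0.946 among 4941 genes. Without the cells of few T cell gene UMIs they were Cox7c, Psma2, Btg1, Sem1 and Spata13, so that Btg1 was in both lists. The pools of a library share its depth and its sequencing, and these values are a description.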

How the data were processed

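Processed files of 2 droplet libraries (10x 3' chemistry) were used. Their values are raw UMI counts per gene and barcode, made by the authors with Cell Ranger 7.1.0, per the file headers; mm10 and Seurat are named in the submitters' processing notes, with no role given. No paper or label used here states the filters behind the deposited barcodes. Of 5203 SAP and 5737 Control barcodes, barcodes under 500 UMIs or 300 genes, or above 10% mitochondrial UMIs, were left out. Scrublet's automatic limit, in scanpy 1.11.5, called 0 SAP barcodes and 1 Control barcode, so the barcodes with the highest doublet scores were left out at 0.8% per 1000 barcodes, 202 in SAP (4.02%) and 257 in Control (4.54%).

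T cells had a UMI of at least 1 of 7 genes (Cd3d, Cd3e, Cd3g, Trac, Trbc1, Trbc2, Trdc). Counts were summed by pool and divided by the pool's total (CPM). Ratios have 95% conditional binomial intervals, levels exact Poisson intervals and shares of cells Clopper-Pearson intervals. No test was run, since each group is 1 library, and the fold limits of 1.2 and 1.5 describe size only. Alternatives were other scalings (TMM factors from edgeR 4.0.16 in R 4.3.3, median-of-ratios factors), gates at 2 UMIs, other filters, equal weight per cell, thinning, and leaving out cells of other lineages. Cells of other lineages here means T cells with at least 1 UMI of the B cell, plasma, dendritic, macrophage or epithelial lists. Without the cells of few T cell gene UMIs, T cells still held 2815 SAP and 3103 Control UMIs of the plasma list. They held 1374 and 1578 UMIs of the epithelial list. This filter thus also left out cells that were not poor in T cell gene UMIs, and the lineage of those cells was not tested. Its lists hold Xbp1, with 1529 SAP and 1748 Control UMIs in T cells, and Epcam, with 1297 and 1278. A deeper cell is more likely to hold such a UMI, and the depth of the cells kept is not given. Fewer UMIs remained: the H2-K1 interval in all T cells was 0.899 to 0.941 under this filter and 0.867 to 0.891 as reported. Leaving out cells of few T cell gene UMIs, a fold limit of 1.1, and the splits by Gzma and by interferon-induced genes were added after seeing the data. The ratios and their intervals were also run on simulated counts with known ratios. Those counts held counting noise only, which the intervals assume, so the run cannot show how they cover other spread. Python 3.11.15, numpy 2.4.6, scipy 1.17.1 and pandas 2.3.3 were used.

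The members and lists were chosen with earlier results of these data known. All 8 members are named, and of each list the genes past 1.2-fold and the 3 highest in CPM, every class I-like gene past the limits on low values, and the 5 genes most correlated with the summed heavy chains; 1 gene that this rule names is not reported here. The other-lineage lists, used to leave out cells, hold markers of B, plasma, dendritic, macrophage and epithelial cells. Markers of mast, stromal and red cells were not used to leave out cells. In SAP and Control T cells the mast markers summed to 79.4 and 89.8 CPM and the stromal markers to 30.3 and 25.1 CPM. The red cell markers summed to 2.14 and 4.53 CPM and the B cell markers to 22.3 and 26.8 CPM. The plasma markers summed to 162 and 230.4 CPM and the class II genes to 58.4 and 63.2 CPM. Upstream sequences are RefSeq's for GRCm38.p6.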

Additional observations from a re-analysis of the deposited data

Results flagged for a closer look

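B2m was higher in SAP than in Control in the Cd4 gate, with a ratio of 1.07, and lower in SAP in the Trdc, Cd8b1 and Cd8a gates, with ratios of 0.942, 0.958 and 0.938. With all T cells the gates thus lay on opposite sides of 1, with 1 library per group on each side. Without cells with a UMI of the other-lineage lists this did not hold for the Cd8a gate, at 1.05 (0.995 to 1.1). The ratio was then 1.08 (0.994 to 1.18) in the Cd4 gate, 0.946 in the Trdc gate and 0.974 in the Cd8b1 gate. The difference between the gates was not tested. The Cd4 gate held 167 SAP and 185 Control cells, and its plasma markers summed to 141 and 619 CPM in SAP and Control, or 136 and 139 CPM without the cells of few T cell gene UMIs, of which 1 lay in the Control gate; the B2m ratio was then 1.07.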

How the results depend on the processing

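The ratio of the summed heavy chains, SAP over Control, stayed below 1 in all T cells pooled under the alternatives run. It was 0.895 as reported, 0.947 without cells with a UMI of other lineages, 0.939 without cells of few T cell gene UMIs, 0.935 with equal weight per cell, 0.832 with TMM factors, 0.849 with median-of-ratios factors and 0.886 without mitochondrial and ribosomal genes in the sum. Within subsets it did not: without cells of other lineages it was 1.1 (1.04 to 1.17) in the Cd4 gate, against 0.994 as reported, and without cells of few T cell gene UMIs it was 1.03 in cells above 6000 UMIs. Of the members in all T cells, H2-Q7 turned to 1.03 and H2-K2 to 1.09 without cells of other lineages, and H2-K2 to 1.03 without cells of few T cell gene UMIs. Heavy chains in the Trdc over the Cd8b1 gate were 0.993 in SAP and 0.957 in Control as reported, 1.04 and 1.01 with gates at 2 UMIs, 0.941 and 0.919 with TMM factors, 0.902 and 0.881 with median-of-ratios factors, and 0.92 and 0.894 without mitochondrial and ribosomal genes. In the Cd8a over the Cd8b1 gate they were 0.922 and 0.908 as reported, and 0.976 and 0.942, 0.858 and 0.862, 0.84 and 0.833, and 0.853 and 0.847 under the same 4 alternatives. Without cells of other lineages they were 0.995 and 0.956, and in SAP 0.958 with equal weight per cell and 0.968 without cells of few T cell gene UMIs. In the Cd4 over the Cd8b1 gate of Control they were 1.02 as reported, 1.09 with gates at 2 UMIs, 1.06 with median-of-ratios factors, 1.07 without mitochondrial and ribosomal genes and 0.96 without cells of other lineages. At 2 UMIs, H2-K1 in the Trdc over the Cd8b1 gate of Control turned to 1.02 and H2-D1 in the Cd8a over the Cd8b1 gate of SAP to 1.02; without cells of other lineages H2-K1 in the Cd8a over the Cd8b1 gate of SAP turned to 1.02. The cause was not tested in any of these.

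Members beyond 1.2-fold between the libraries were 0 as reported, 3 with TMM factors and 1 with median-of-ratios factors, and 3 passed 1.1-fold. Genes beyond the limit were 874 as reported, 10854 with no limit on low values, 454 without cells of few T cell gene UMIs, 275 at 1.5-fold and 2259 at 1.1-fold, where the limits themselves set the counts. A mitochondrial limit of 5%, keeping doublets and a minimum of 1500 UMIs left all 56 results computed under them within their counting interval or, for counts, within 1.5 times. Of those 56, TMM factors moved 20, median-of-ratios factors 21, leaving mitochondrial and ribosomal genes out of the sum 16, equal weight per cell 6 and leaving out cells of few T cell gene UMIs 8, while leaving out cells of other lineages moved 11 and reversed 2. Gates at 2 UMIs moved 10 of 48 and reversed 2. Thinning to 2000 UMIs in place of 1000 moved all 16 shares of cells. No paired analysis was possible because the labels carry no replicate numbers and each group is 1 library. Depth limits H2-K2 and the Cd4 gates most.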
